A study of Mus musculus with 6 samples.

Results

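The constitutive proteasome genes were taken as the protein-coding genes whose symbol begins with Psma to Psmg followed by a number, leaving out the immunoproteasome subunits Psmb8, Psmb9 and Psmb10 and the interferon-inducible activator subunits Psme1 and Psme2. The rule found 45 genes among the 56350 gene IDs of the count table. By role, 16 belong to the 20S core, 17 to the 19S cap, 7 are assembly factors and 3 are other activators or an inhibitor. The remaining 2, Psmc3ip and Psme2b, match the symbol rule and belong to no proteasome class.

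RNA from mouse liver was sequenced in bulk in 3 Atg14 HepKO libraries, from mice labelled as a hepatocyte-specific knockout of Atg14, and in 3 wild-type (WT) libraries. The Atg14 protein recruits a lipid kinase complex to the membranes where autophagosomes form, and the comparison asks how the liver transcriptome differs where hepatocytes lack it. The sources used here do not give the Cre line and its promoter, nor age, sex, strain or diet. Nothing in the labels says that the 3 libraries of a group came from separate animals, and p-values then measure the spread between these samples only.

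The proteasome degrades proteins tagged with ubiquitin. Its 20S core is a barrel of alpha and beta rings, in which 3 kinds of beta subunit cut peptide bonds, and its 19S cap has a base of ATPases that unfold the substrate and a lid that removes ubiquitin. Core and base are each built with the help of dedicated chaperones. In mammalian cells the transcription factor NRF1 (Nfe2l1) raises the subunit genes together when proteasome activity falls, binding antioxidant response elements in their promoters, and the proteasome and autophagy are the main routes by which liver cells degrade protein.

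Total counts were 48951937, 37265058 and 33145684 in HepKO replicates 1 to 3, against 35720011, 41754560 and 41464638 in WT replicates 1 to 3. Atg14 itself had 5.67, 8.45 and 7.95 CPM (read counts scaled to a common library size) in HepKO, against 20.95, 22.2 and 21.05 CPM in WT, and fell by 1.54 on the log2 scale (SE 0.16, FDR 4.69e-04). FDR is the Benjamini-Hochberg adjusted p of edgeR's quasi-likelihood test over the 16051 genes tested, and a gene was called at an FDR under 0.05. Scaling used trimmed means of M-values (TMM), with factors of 1.19 to 1.21 in HepKO and 0.824 to 0.860 in WT. The median log2 fold change (HepKO over WT) of tested genes was 0.01 under TMM and 0.52 with library totals alone, so each gene's direction is relative to the scaling. Xist stood apart in HepKO replicate 1, with 30377 counts against 22 and 15 in HepKO replicates 2 and 3 and 2, 7 and 6 in WT. Without that library the member calls stayed at 27 lower and 1 higher.

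Markers of several liver cell types differed with genotype. Under TMM 18.7% of all tested genes were called lower and 19.5% higher. All 8 hepatocyte markers were called lower, with summed levels of 42620 to 52870 CPM in HepKO and 97370 to 121500 CPM in WT. Of the Kupffer cell and macrophage markers 7 of 8 were higher (407 to 742 CPM in HepKO, 157 to 310 CPM in WT), as were 4 of 7 cholangiocyte markers (149 to 565 CPM in HepKO, 44.3 to 62.6 CPM in WT), 3 of 8 stellate cell markers (507 to 580 CPM in HepKO, 217 to 315 CPM in WT), all 3 tested neutrophil markers (6.87 to 20.1 CPM in HepKO, 1.73 to 4.49 CPM in WT), 1 of 7 endothelial markers (183 to 234 CPM in HepKO, 156 to 199 CPM in WT) and 1 of 5 tested T and NK cell markers (5.51 to 7.34 CPM in HepKO, 1.49 to 4.15 CPM in WT). None of 5 B and plasma cell markers was called (5.42 to 11.53 CPM in HepKO, 4.83 to 8.45 CPM in WT), and 3 of 5 erythroid markers were lower (98.2 to 131 CPM in HepKO, 187 to 270.3 CPM in WT). The groups overlap in the endothelial and in the B and plasma cell sums. With library totals, 5 hepatocyte markers and 1 erythroid marker were lower, beside 5.84% of all tested genes. Higher were 8 Kupffer cell and macrophage, 5 cholangiocyte, 6 stellate cell, 3 neutrophil, 5 endothelial, 2 T and NK cell and 1 B and plasma cell markers. Of all tested genes 46.4% were then higher. No marker was at 0 in every library. In bulk tissue, fewer cells of a type and less RNA per cell cannot be told apart, and the part of these shifts in the proteasome values was not tested.

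The promoters of some members carry letters bound by factors known to act on proteasome genes. Whether these letters bear on the direction of a member was not tested. RefSeq promoter windows (GRCm38.p6) were matched for 37 of the 45 members, and the 250 bases before each start were searched on both strands. The antioxidant response element core TGACNNNGC, bound by NRF1 and NRF2, was found in 5 of those 37 members. That share is near the 10.2% of 32817 windows of the same length over all genes. The members were Psmb5, Psmb6, Psmc6, Psmd12 and Psmd9. The match begins 47 bases before the start in Psmb5 (chr14:54618023-54618058, minus strand) and 9 bases before it in Psmb6 (chr11:70525332-70525356, plus strand). In Psmc6 it begins 227 bases before (chr14:45329581-45329621, plus strand), in Psmd12 247 bases before (chr11:107479278-107479305, plus strand) and in Psmd9 31 bases before (chr5:123228143-123228183, plus strand). Each stretch reads 5′ to 3′ on the gene's strand and lies outside annotated exons, and capitals mark the match, which is on the opposite strand in Psmc6 and Psmd12.
Psmb5: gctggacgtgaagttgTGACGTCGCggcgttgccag
Psmb6: ggcggactaaagagagTGACGGAGC
Psmc6: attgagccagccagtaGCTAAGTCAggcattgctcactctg
Psmd12: tctGCTGTGTCAcatttgcccccctcag
Psmd9: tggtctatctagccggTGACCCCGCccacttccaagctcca

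The NF-Y box CCAAT was present in 14 of the 37 members, a share near the 33.8% of all windows. It lay in 5 of the 7 alpha ring genes in the table, Psma1, Psma2, Psma3, Psma6 and Psma7. Among other members with a window it lay in 1 of 3 catalytic and 1 of 2 other beta ring genes. In the cap it lay in 4 of 14 genes, and among the assembly factors in 1 of 6. The difference between classes was not tested, and only alpha ring stretches are shown. The Psma7 match, 196 bases before the start, lies in an annotated exon, and its stretch is left out. Capitals mark CCAAT, or ATTGG where the box is on the opposite strand, in Psma1 (chr7:114276222-114276258 and chr7:114276194-114276230, minus strand), Psma2 (chr13:14613172-14613208, plus strand), Psma3 (chr12:70974468-70974504, plus strand) and Psma6 (chr12:55384070-55384106 and chr12:55384177-55384213, plus strand).
Psma1, distal: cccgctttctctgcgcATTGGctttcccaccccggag
Psma1, proximal: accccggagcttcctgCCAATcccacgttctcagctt
Psma2: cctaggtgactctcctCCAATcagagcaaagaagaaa
Psma3: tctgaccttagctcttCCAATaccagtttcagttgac
Psma6, distal: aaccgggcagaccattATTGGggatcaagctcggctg
Psma6, proximal: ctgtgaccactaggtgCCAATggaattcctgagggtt

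Psmd8, the only member called higher under TMM, held neither motif in its 250 bases. The same was true of Psmd1, Psmd2, Psmd6 and Psmc4, which were called lower under TMM. The 120 bases next to the annotated start of Psmd8 (chr7:29180702-29180821, minus strand) are given for comparison and have no capitals for lack of a match.
Psmd8: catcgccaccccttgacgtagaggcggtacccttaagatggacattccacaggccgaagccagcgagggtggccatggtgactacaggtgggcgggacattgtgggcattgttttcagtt
A match describes letters in a window and is not a binding site, and a window without one says nothing of the factor.

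Most constitutive subunit genes were lower in HepKO relative to the typical gene. Of the 43 members tested, 27 (62.8%) were called lower and 1 (2.33%) higher under TMM, where 18.7% of all tested genes were called lower and 19.5% higher (38.2% in either direction). With library totals alone 3 members were lower (Psmd1, Psmb7 and Psmd9) and 11 higher, where 5.84% of all tested genes were lower and 46.4% higher (52.2% in either direction). The median log2 fold change of the members was -0.39 under TMM and turned to 0.12 with library totals, which is 0.40 below the median gene under each. Under both scalings, 34 of the 43 lay below the median gene. The scaling shifts every gene by a like amount, so positions relative to the median gene could hardly differ between the scalings. Every HepKO library was below every WT library for 30 members, against 26.4% of all tested genes, and above for 3, against 27.1%.

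The members' share of all counts went the other way from their scaled level. They took 0.385%, 0.357% and 0.369% of the counts in HepKO, against 0.331%, 0.337% and 0.331% in WT, a share 1.11 times as large. Their summed level under TMM was 3246, 2966 and 3108 CPM in HepKO, against 3995, 3925 and 4021 CPM in WT, which is 0.781 times as high. The groups do not overlap in either measure. Ratios between members within a library do not depend on the scaling and are given below for that reason.

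Counts of calls by class are given first under TMM. In the core, 13 of 15 tested members were called lower and 0 higher (median log2 fold change -0.40), and in the cap 12 of 17 were lower and 1 higher (median -0.45). Among assembly factors 1 of 6 was lower and 0 higher (median -0.15), and of the activators and inhibitor 1 of 3 was lower (median -0.08). With library totals those counts were 1 lower and 1 higher for the core (median 0.11), 1 and 5 for the cap (median 0.07), 1 and 2 for the assembly factors (median 0.36), and 0 and 2 for the activators and inhibitor (median 0.43). Leaving out WT replicate 3 or HepKO replicate 2 left 7 core members called lower. Over all tested genes 18.7% were lower and 19.5% higher under TMM, and 5.84% and 46.4% with library totals. The assembly factors called lower under TMM (16.7%) are near that share. The difference between classes was not tested as such.

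**Figure D1:**
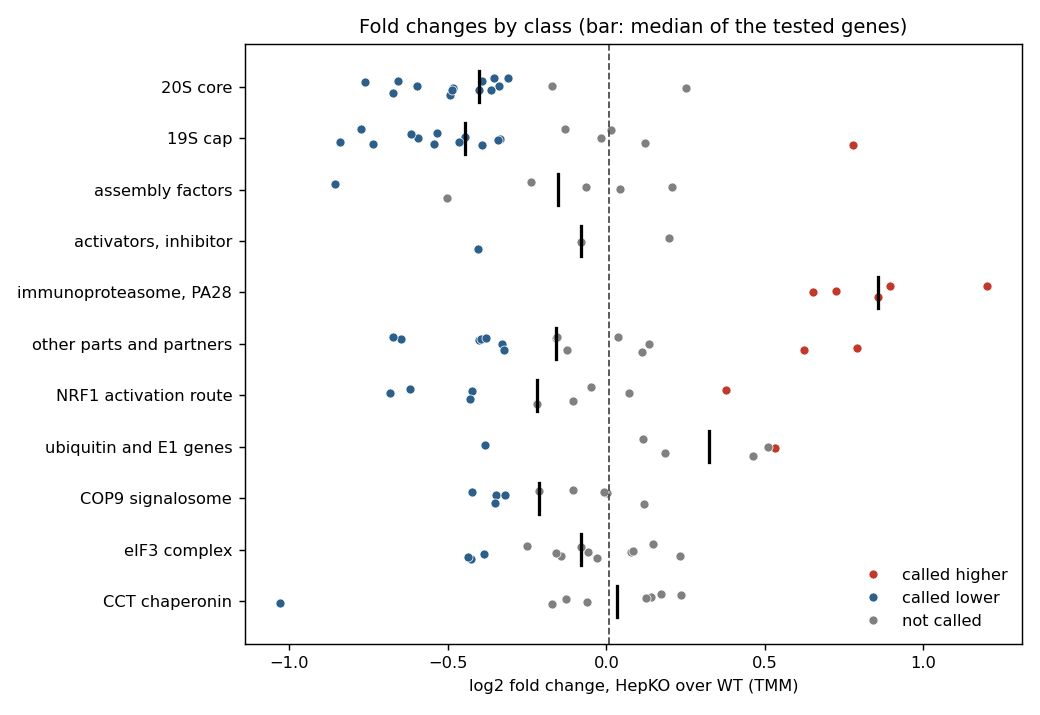
Log2 fold change (HepKO over WT, TMM scaling) of each tested gene by member class and by the other lists described further on. Each point is 1 gene coloured by its call, black bars are list medians and the dashed line is the median of all tested genes. Core and cap points lie mostly below the line, with medians of -0.40 and -0.45, while the assembly factors have a median of -0.15; with library totals the medians turn to 0.11, 0.07 and 0.36.

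In the alpha ring, which gates the core, 7 of 8 genes were called lower under TMM (median log2 fold change -0.36), and none in either direction with library totals. Psma3 showed the smallest p. It had 98.1, 88.1 and 94.0 CPM in HepKO, against 154, 143 and 149 CPM in WT, with no overlap (log2 fold change -0.67 ± 0.09, SE, FDR 0.00114). Psma6 had 114, 93.6 and 106 CPM in HepKO, against 154, 140.3 and 144 CPM in WT, again apart (-0.48 ± 0.10, FDR 0.00873). Psma7 had 93.5, 78.0 and 91.4 CPM in HepKO, against 120.0, 108 and 117 CPM in WT (-0.39 ± 0.10, FDR 0.0196). HepKO replicate 2 was the lowest HepKO library for all 8 alpha genes.

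Psma1, Psma2, Psma4 and Psma5 were called with log2 fold changes of -0.34, -0.31, -0.36 and -0.36 (FDR 0.0463, 0.0406, 0.0253 and 0.0214). Psma1 lost its call in 5 of 6 fits that left out a library, all but the one without HepKO replicate 1, with FDR up to 0.132. Psma2 lost it in the same 5 (up to 0.133), and Psma4 in the 4 without WT replicate 2 or 3 or HepKO replicate 2 or 3 (up to 0.0960). Psma5 and Psma7 each lost it without WT replicate 1, WT replicate 3 or HepKO replicate 2, with FDR up to 0.0721 and 0.0654. Their log2 fold changes stayed below 0 in every one of these fits. Psma8, which replaces Psma7 in testis, was barely detected, with 74, 21 and 64 counts in HepKO and 27, 33 and 34 in WT. Its groups overlap (0.25 ± 0.49, FDR 0.727).

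The beta ring genes without catalytic activity, which hold the core together, were all called lower, 4 of 4 (median log2 fold change -0.54 under TMM, -0.03 with library totals, where none was called). Psmb3 had 60.6, 52.2 and 53.9 CPM in HepKO, against 92.9, 81.6 and 88.3 CPM in WT (-0.66 ± 0.10, FDR 0.00186). Psmb1 had 93.8, 77.4 and 83.0 CPM in HepKO, against 128.5, 126 and 130.1 CPM in WT (-0.60 ± 0.10, FDR 0.00278). Psmb2 had 48.2, 43.3 and 43.2 CPM in HepKO, against 65.3, 58.2 and 65.3 CPM in WT (-0.49 ± 0.10, FDR 0.00573). No HepKO library reached a WT library for any of them. Psmb4 was lower by a smaller margin (-0.40 ± 0.10, FDR 0.0158), and lost its call without WT replicate 3 (FDR 0.0702) or HepKO replicate 2 (FDR 0.0544).

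The 3 widely used catalytic subunits gave unlike values. Psmb7, the trypsin-like subunit, lies on chromosome 2, minus strand, positions 38588036 to 38644087 (GRCm38). It had 89.4, 84.4 and 87.0 CPM in HepKO, against 144, 139.9 and 158 CPM in WT. The groups stand far apart (-0.76 ± 0.09, FDR 7.56e-04), and the call holds with library totals (-0.25, FDR 0.0399). Psmb6, the caspase-like subunit, had 70.7, 56.5 and 66.9 CPM in HepKO, against 84.8, 91.5 and 96.95 CPM in WT, without overlap (-0.49 ± 0.11, FDR 0.0104). Psmb5, the chymotrypsin-like subunit and the main target of bortezomib, had 54.6, 46.6 and 42.5 CPM in HepKO, against 50.0, 53.9 and 57.9 CPM in WT. Its groups overlap and it was not called (-0.17 ± 0.12, FDR 0.288), while with library totals it was called higher (0.34, FDR 0.0398). Psmb11, the catalytic subunit of the thymus, had 0 counts in HepKO and 1, 0 and 0 in WT, and failed the filter on low counts. An exon of Nek6 on the opposite strand covers 11.8% of Psmb7's exon bases, and the strand setting of the counting is not given, so such partners cannot be told apart.

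Each catalytic gene has an immunoproteasome counterpart, and the ratio of the pair shows their balance within a library. Per kb of exon, Psmb10 over Psmb7 was 0.822, 0.641 and 0.707 in HepKO, against 0.181, 0.272 and 0.255 in WT, 3.07 times as high. Psmb8 over Psmb5 was 0.332, 0.282 and 0.365 in HepKO, against 0.137, 0.127 and 0.115 in WT (2.58 times), and Psmb9 over Psmb6 was 0.219, 0.243 and 0.232 in HepKO, against 0.101, 0.111 and 0.0868 in WT (2.33 times). In all 3 pairs the HepKO libraries lie above the WT libraries, and the constitutive gene had more counts per kb than its counterpart in every library. With 3 libraries against 3, an exact 2-sided permutation test cannot go below p = 0.1, so no test was made of these ratios. The immunoproteasome and activator genes themselves were called higher, 5 of 5 under both scalings: Psmb8 (log2 fold change 1.20 ± 0.13, FDR 4.58e-04), Psmb9 (0.72 ± 0.11, FDR 0.00217), Psmb10 (0.86 ± 0.19, FDR 0.00869), Psme1 (0.90 ± 0.15, FDR 0.00316) and Psme2 (0.65 ± 0.19, FDR 0.0306). Psme2 lost its call without any 1 of the WT libraries or HepKO replicate 3 (FDR 0.0507 to 0.0859), and its log2 fold change was 0.40 without HepKO replicate 1.

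**Figure D2:**
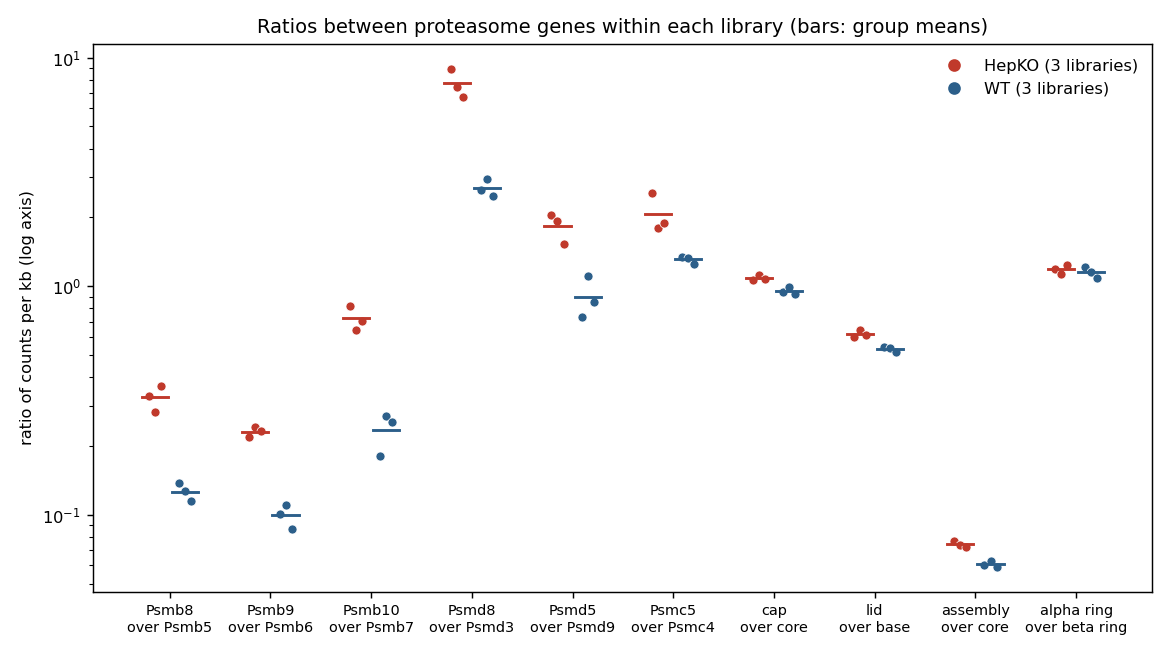
Ratios of counts per kb of exon between members, and to immunoproteasome genes, in each of the 3 HepKO and 3 WT libraries, on a log axis with 1 point per library and bars at the group means. The HepKO points lie above the WT points for Psmb10 over Psmb7, Psmb8 over Psmb5 and Psmb9 over Psmb6, and the scaling of the libraries does not enter these values.

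In the base of the cap, 5 of the 6 ATPase genes, whose ring unfolds the substrate, were called lower under TMM (median log2 fold change -0.37), and none was called lower with library totals (median 0.14). Psmc4 had 69.1, 69.2 and 71.4 CPM in HepKO, against 96.3, 100.1 and 109 CPM in WT (-0.54 ± 0.09, FDR 0.00257). Psmc6 had 79.5, 77.1 and 86.6 CPM in HepKO, against 114, 116.5 and 122 CPM in WT (-0.53 ± 0.09, FDR 0.00291). Psmc2 had 77.4, 75.6 and 79.4 CPM in HepKO, against 109.6, 97.4 and 98.1 CPM in WT (-0.39 ± 0.09, FDR 0.0110). The HepKO libraries of these 3 genes are close together and all below WT. Psmc1 (-0.34, FDR 0.0262) and Psmc3 (-0.34, FDR 0.0393) were called lower with less room. Psmc1 lost its call in every fit that left out a library except that without HepKO replicate 1 (FDR up to 0.0875), and Psmc3 did so without WT replicate 2 or 3 or HepKO replicate 2 or 3 (FDR up to 0.169). Psmc5 differed from its ring partners, with 113.5, 79.8 and 87.2 CPM in HepKO, against 83.7, 85.9 and 88.3 CPM in WT. HepKO replicate 1 is far above the other libraries and the groups overlap (0.12 ± 0.14, FDR 0.523). With library totals Psmc5 was called higher (0.63, FDR 0.00574). Per kb, Psmc5 over Psmc4 was 2.55, 1.79 and 1.90 in HepKO, against 1.35, 1.33 and 1.25 in WT.

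The other base subunits are Psmd1 and Psmd2, large scaffolds that dock ubiquitin carriers, and Psmd4, a ubiquitin receptor. Psmd1 had the smallest p of all members. It lies on chromosome 1, plus strand, positions 86064387 to 86139151, and had 91.2, 97.7 and 104 CPM in HepKO, against 173, 178 and 174 CPM in WT. The HepKO libraries do not come near the WT libraries (-0.84 ± 0.09, FDR 5.21e-04), and the gene stayed lower with library totals (-0.33, FDR 0.0189). Psmd2 had 154, 150.5 and 144 CPM in HepKO, against 219.7, 229 and 229.6 CPM in WT, again apart (-0.59 ± 0.09, FDR 0.00166). Psmd4 had 106.5, 98.2 and 105 CPM in HepKO, against 114, 110.2 and 115 CPM in WT. It lay just below WT in each library and was not called (-0.13 ± 0.09, FDR 0.265), while it was called higher with library totals (0.38, FDR 0.00624).

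The lid held the only cap gene called higher: 5 of 8 genes were lower, 1 higher and 2 not called under TMM (median log2 fold change -0.46), against 0 lower and 3 higher with library totals (median 0.06). Psmd3, a scaffold of the lid, had 43.2, 46.4 and 49.7 CPM in HepKO, against 73.4, 78.5 and 79.8 CPM in WT (-0.73 ± 0.09, FDR 9.09e-04). Psmd12 had 71.1, 66.3 and 74.6 CPM in HepKO, against 111, 107.5 and 107 CPM in WT (-0.62 ± 0.09, FDR 0.00147). Psmd6 had 44.7, 51.8 and 57.5 CPM in HepKO, against 91.5, 83.7 and 88.05 CPM in WT (-0.77 ± 0.11, FDR 0.00155). These 3 scaffold genes stood clear of WT in every library. Psmd13 (-0.45, FDR 0.00501) and Psmd14, the deubiquitinase of the lid (-0.47, FDR 0.00435), were also called lower.

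Psmd8 went the other way. It encodes a small lid subunit that, in yeast, is the last to join the lid, and lies on chromosome 7, minus strand, positions 29174188 to 29180701, with no annotated exon of another gene over its exons. It had 238, 213 and 207 CPM in HepKO, against 119, 142.5 and 122 CPM in WT. Every HepKO library is well above every WT library, with means of 219 ± 16.3 CPM in HepKO and 128 ± 12.8 CPM in WT (SD, n = 3 each), 71.3% higher (log2 fold change 0.78 ± 0.11, FDR 0.00148). It was called higher with library totals as well (1.29, FDR 1.96e-04). Psmd8 took 7.32%, 7.19% and 6.65% of the counts of all proteasome-class members in HepKO, against 2.98%, 3.63% and 3.04% in WT. Per kb, Psmd8 over Psmd3 was 8.94, 7.47 and 6.75 in HepKO, against 2.63, 2.95 and 2.49 in WT, 2.87 times as high.

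Neither of the other lid genes was called under TMM. Psmd7, the inactive partner of Psmd14, had 77.3, 69.6 and 73.3 CPM in HepKO, against 82.3, 70.9 and 69.6 CPM in WT (-0.02 ± 0.10, FDR 0.917). Psmd11, a lid scaffold known to promote assembly of the whole particle, had 133, 121 and 118 CPM in HepKO, against 124, 131 and 114.5 CPM in WT (0.01 ± 0.10, FDR 0.930). The groups overlap for both, and both were called higher with library totals (0.49, FDR 0.00411, and 0.52, FDR 0.00396). The ratio of lid to base rested on Psmd8. Summed per kb, lid over base was 0.5996, 0.644 and 0.615 in HepKO, against 0.542, 0.538 and 0.517 in WT. Without Psmd8 it was 0.391, 0.431 and 0.420 in HepKO, against 0.453, 0.432 and 0.427 in WT, and the groups overlap.

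**Figure D3:**
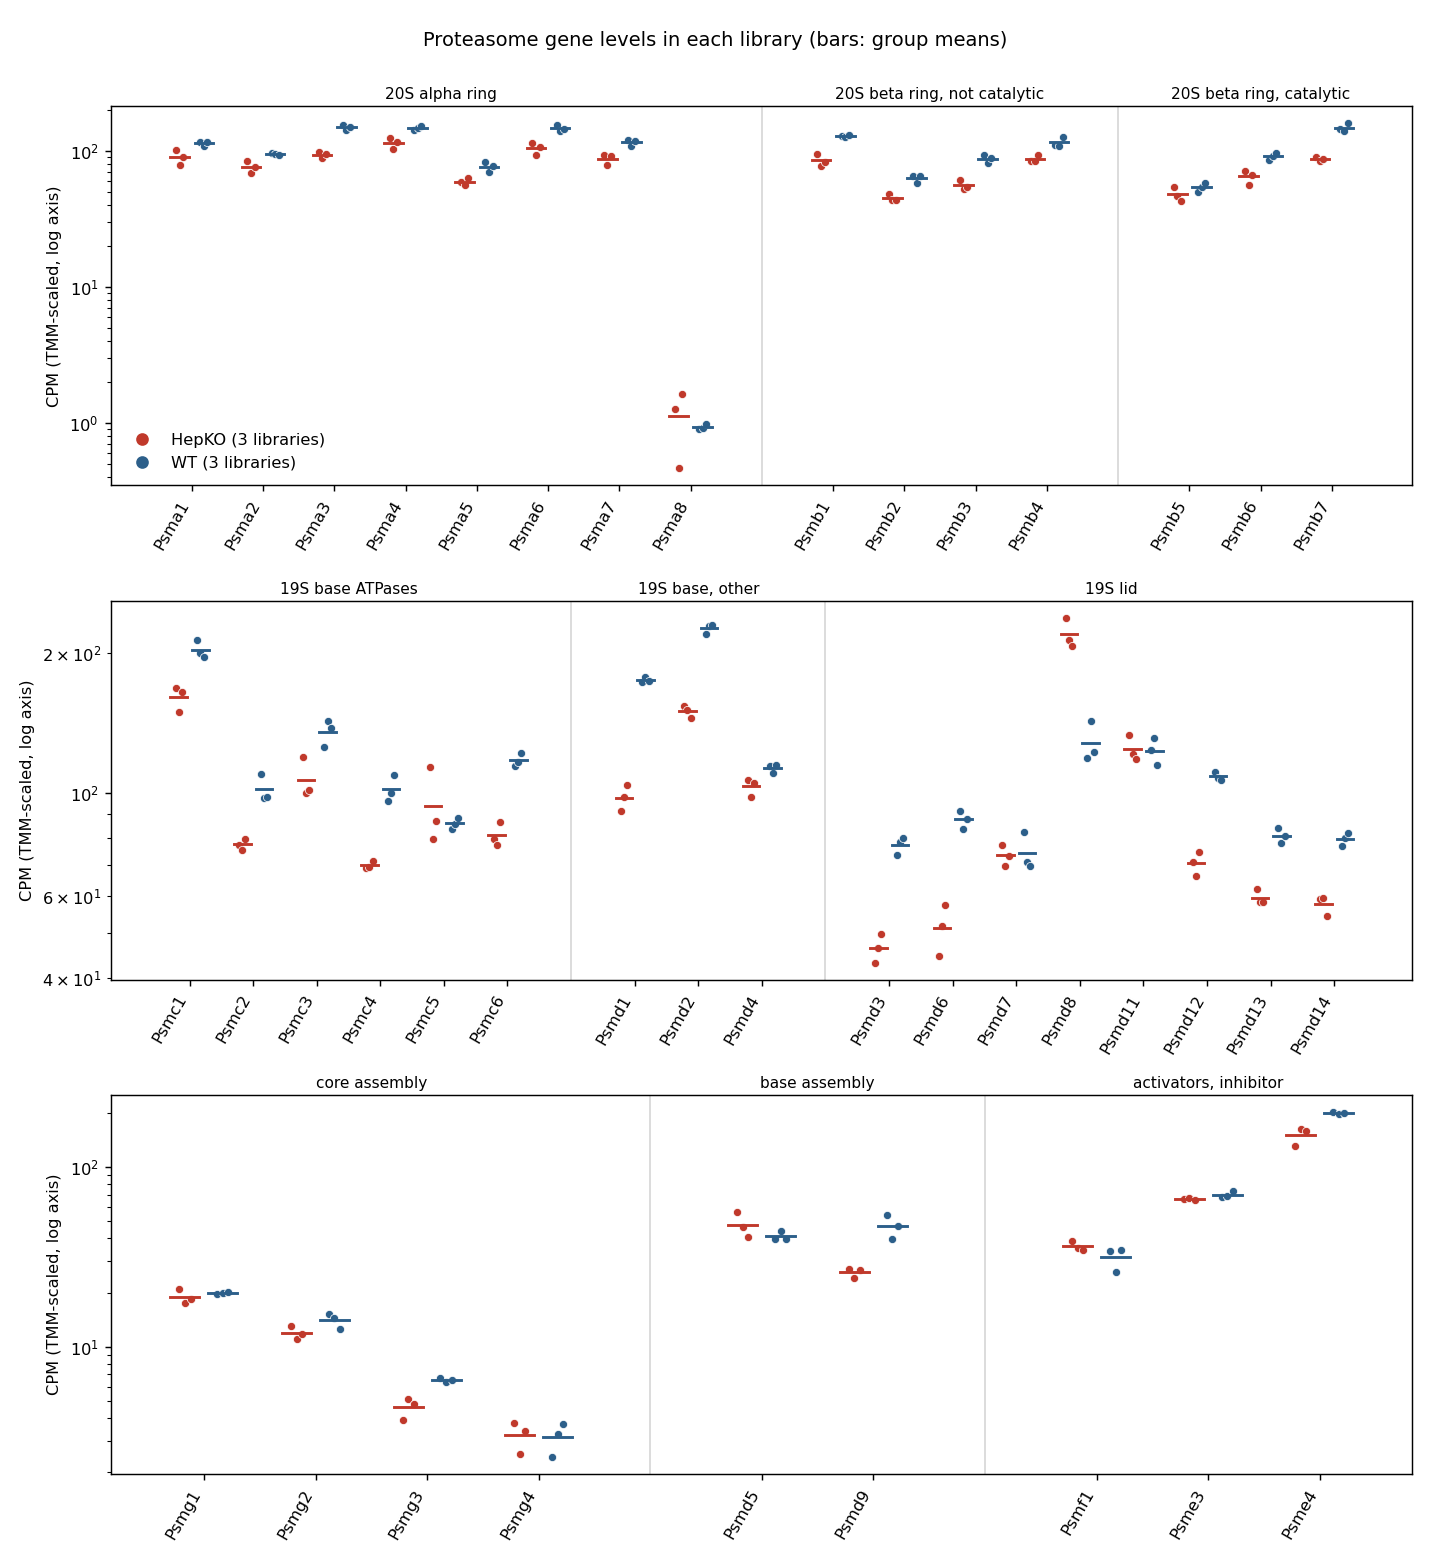
Level of each tested proteasome-class member in each library, in CPM under TMM scaling on a log axis, with 1 point per library and bars at the group means. Psmd8 stands above WT in all 3 HepKO libraries, at 207 to 238 CPM, while Psmd1, at 91.2 to 104 CPM in HepKO, stands below its 173 to 178 CPM in WT; with library totals Psmd8 stays higher and Psmd1 lower.

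**Figure D4:**
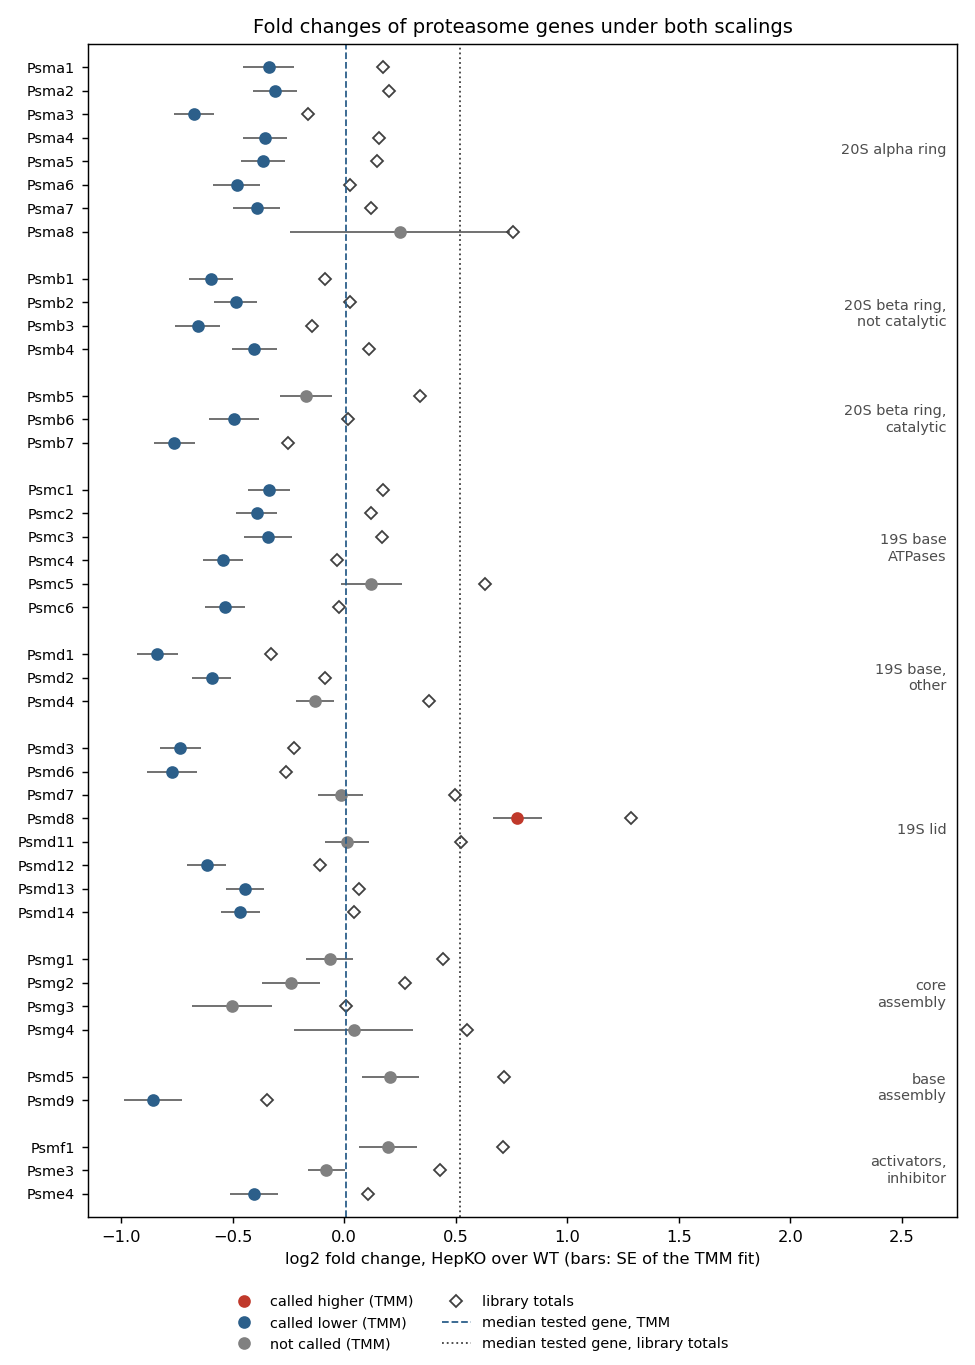
Log2 fold change of each tested proteasome-class member, HepKO over WT, under TMM scaling (filled points with bars of 1 SE, coloured by call) and with library totals (open diamonds), with lines at the median tested gene under each. All values move up together by about the 0.52 at which the median gene then lies, so that most values below 0 under TMM lie near or above 0 with library totals.

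Under TMM 16.7% of the tested assembly factors were called lower, near the 18.7% of all tested genes. None of the 4 chaperones of the core that match the symbol rule was called under TMM, and 1 was called higher with library totals. Pomp, another chaperone of the core that the rule leaves out, was called lower under TMM (-0.33 ± 0.10, FDR 0.0339). It was not called with library totals (0.18, FDR 0.1335). Psmg1 had 20.9, 17.6 and 18.4 CPM in HepKO, against 19.6, 19.9 and 20.02 CPM in WT (-0.07 ± 0.11, FDR 0.663). Its partner Psmg2 had 13.02, 11.1 and 11.7 CPM in HepKO, against 15.2, 14.4 and 12.5 CPM in WT (-0.24 ± 0.13, FDR 0.190). Psmg3 had 3.93, 5.13 and 4.78 CPM in HepKO, against 6.69, 6.32 and 6.56 CPM in WT. All 3 HepKO libraries of Psmg3 are below WT, and it just missed the threshold (-0.50 ± 0.18, FDR 0.0580). Psmg4, which pairs with Psmg3, had 3.77, 2.52 and 3.404 CPM in HepKO, against 2.43, 3.26 and 3.72 CPM in WT, with overlap (0.04 ± 0.27, FDR 0.918). The Psmg genes are low, and the SE of Psmg3 and Psmg4 is larger than that of any constitutive member called.

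The chaperones of the base diverged from each other. Psmd9, on chromosome 5, plus strand, positions 123169413 to 123250131, had 27.2, 24.0 and 26.7 CPM in HepKO, against 54.2, 39.8 and 47.0 CPM in WT. The groups are apart, with WT the more scattered (-0.86 ± 0.13, FDR 0.00178), and Psmd9 stayed lower with library totals (-0.34, FDR 0.0425). An annotated gene on the opposite strand, Gm26745, covers 25.5% of its exon bases and cannot be told apart from it. Psmd5 had 55.8, 46.1 and 40.7 CPM in HepKO, against 39.8, 43.8 and 39.9 CPM in WT. Its groups overlap and it was not called (0.21 ± 0.13, FDR 0.239), but it was called higher with library totals (0.72, FDR 0.00294). Per kb, Psmd5 over Psmd9 was 2.06, 1.92 and 1.53 in HepKO, against 0.736, 1.10 and 0.851 in WT. Every HepKO ratio lay above every WT ratio. Whether a ratio lies above or below 1 depends on the merged exon lengths, which can exceed the transcripts made in liver. Psmd10 had 2, 6 and 1 counts in HepKO and 0 in each WT library, failed the filter on low counts and is given no fold. So few counts do not show that the transcript is absent.

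Among the other activators and the inhibitor, Psme4, the large activator PA200 on chromosome 11, plus strand, positions 30771726 to 30880361, had 130.5, 162 and 159 CPM in HepKO, against 201, 198 and 198.5 CPM in WT. The WT libraries are nearly equal and all above HepKO (-0.41 ± 0.11, FDR 0.0212, and 0.11 with library totals, FDR 0.445). The call was lost without any 1 of the WT libraries (FDR 0.0579 to 0.0774). Psme3, the nuclear activator PA28 gamma, had 66.6, 67.03 and 65.6 CPM in HepKO, against 67.95, 69.3 and 73.3 CPM in WT. It was close to WT and not called (-0.08 ± 0.08, FDR 0.485). Psmf1, an inhibitor of the core in vitro, had 38.6, 35.3 and 34.6 CPM in HepKO, against 34.1, 26.0 and 34.5 CPM in WT, and its HepKO libraries lie above WT by a small margin (0.20 ± 0.13, FDR 0.267). Psme3 and Psmf1 were called higher with library totals (0.43, FDR 0.00333, and 0.71, FDR 0.00205).

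The genes of no proteasome class were near the limit of detection. Psmc3ip, which acts in meiotic recombination, had 43, 18 and 16 counts in HepKO and 4, 21 and 10 in WT, with overlap (0.60 ± 0.63, FDR 0.490). Psme2b, an intronless relative of Psme2, had 15, 14 and 11 counts in HepKO and 3, 6 and 3 in WT. Its HepKO libraries are higher but it was not called (1.22 ± 0.58, FDR 0.132), except with library totals (1.72, FDR 0.0365).

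Levels per kb of exon varied among subunits that sit in the particle in equal number. Over the 31 core and cap genes other than Psma8 and Psmb11, the median was 30.5 CPM per kb in HepKO and 40.3 CPM per kb in WT. Psma6 was highest in both groups, at 84.7 CPM per kb in HepKO and 118 CPM per kb in WT, and Psmd3 lowest, at 9.35 CPM per kb in HepKO and 15.6 CPM per kb in WT. The range between them was 9.06-fold in HepKO and 7.61-fold in WT. The assembly factors were lower, with medians of 6.20 CPM per kb in HepKO and 6.09 CPM per kb in WT. The exon length is that of all annotated exons merged and can exceed the transcript made in liver.

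Ratios between whole parts of the particle were also compared within libraries. Summed per kb, cap over core was 1.07, 1.12 and 1.08 in HepKO, against 0.942, 0.993 and 0.925 in WT, 1.14 times as high. Without Psmd8 it was 0.930, 0.973 and 0.948 in HepKO, against 0.887, 0.924 and 0.870 in WT, 1.06 times as high, and the groups still do not overlap. Assembly factors over core stood at 0.0765, 0.0739 and 0.0722 in HepKO, against 0.0603, 0.0628 and 0.0592 in WT, 1.22 times as high. Alpha over beta ring was 1.19, 1.13 and 1.24 in HepKO, against 1.22, 1.15 and 1.09 in WT, and the groups overlap.

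The order of the libraries within a group was often shared by core genes. HepKO replicate 1 was the highest HepKO library for 12 of 15 core genes, and replicate 2 the lowest for 12. In WT, replicate 2 was the lowest for 10 of the 15. In the cap, HepKO replicate 1 was highest for 9 of 17 genes and replicate 2 lowest for 9. The median coefficient of variation of core genes was 9.48% in HepKO and 5.86% in WT, and that of cap genes 6.06% in HepKO and 4.37% in WT.

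Of 15 proteasome parts and partners outside the symbol rule, 7 were lower and 2 higher under TMM (median log2 fold change -0.16), against 0 and 7 with library totals. Under TMM 18.7% of all tested genes were lower and 19.5% higher, against 5.84% and 46.4% with library totals. The 7 of 15 higher with library totals are near the share of all genes. Adrm1, a ubiquitin receptor of the base, averaged 34.5 ± 1.15 CPM in HepKO and 54.05 ± 3.66 CPM in WT (log2 fold change -0.65 ± 0.09, FDR 0.00140). Ube3c, a ubiquitin ligase bound to the particle, averaged 42.1 ± 2.62 CPM in HepKO and 67.1 ± 3.63 CPM in WT (-0.67 ± 0.09, FDR 0.00127). Zfand2a, an arsenite-inducible regulator, rose, with 20.6 ± 0.897 CPM in HepKO and 11.9 ± 1.10 CPM in WT (0.79 ± 0.11, FDR 0.00155), and was higher with library totals too (1.30).

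In the route that activates NRF1, 4 of 9 tested genes were lower and 1 higher under TMM, against 0 and 5 with library totals. All tested genes were 18.7% lower and 19.5% higher under TMM, and 5.84% and 46.4% with library totals. Ddi2, the protease that cleaves NRF1, averaged 144 ± 21.3 CPM in HepKO and 231.5 ± 18.6 CPM in WT (-0.68 ± 0.13, FDR 0.00547). Vcp, the ATPase that extracts NRF1 from the endoplasmic reticulum, averaged 304.5 ± 9.44 CPM in HepKO and 467.5 ± 1.24 CPM in WT (-0.62 ± 0.09, FDR 0.00175). Ngly1, which removes its sugars, averaged 45.5 ± 0.699 CPM in HepKO and 61.1 ± 0.953 CPM in WT (-0.42 ± 0.08, FDR 0.00474). None of the 3 was called with library totals. Nfe2l1 itself was not called under TMM (-0.22 ± 0.09, FDR 0.0825) and was called higher with library totals (0.29, FDR 0.0236), and Nfe2l2, which encodes NRF2, was the gene called higher under TMM (0.38 ± 0.12, FDR 0.0393). Known NRF2 targets were higher in 10 of 10 cases under both scalings, among them Gclc, of glutathione synthesis, at 1391 ± 104 CPM in HepKO and 305 ± 15.3 CPM in WT (FDR 6.83e-05), Cbr3, a carbonyl reductase, at 166 ± 20.7 CPM in HepKO and 0.721 ± 0.244 CPM in WT (FDR 1.32e-05), and Gpx2, a glutathione peroxidase, at 12.5 ± 1.93 CPM in HepKO and 0.0920 ± 0.0556 CPM in WT (FDR 6.30e-05).

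Other large complexes were counted in the same fit, with no test against the proteasome. Under TMM, 44.4% of COP9 signalosome, 23.1% of eIF3 and 12.5% of CCT chaperonin genes were lower, beside 18.7% of all tested genes. The last 2 shares are near that of all genes. With library totals 5.84% of all tested genes were lower and 46.4% higher. The COP9 signalosome, which resembles the lid, had 4 of 9 genes lower and 0 higher (median log2 fold change -0.21), against 0 and 5 with library totals. Its genes of smallest p were Cops3 (-0.43 ± 0.10, FDR 0.0113), Cops6 (-0.35 ± 0.08, FDR 0.0121) and Cops5, its catalytic subunit (-0.32 ± 0.08, FDR 0.0179). Translation factor eIF3 had 3 of 13 lower and 0 higher (median -0.08), namely Eif3j1 (-0.39 ± 0.09, FDR 0.0126), Eif3l (-0.44 ± 0.11, FDR 0.0145) and Eif3i (-0.43 ± 0.11, FDR 0.0150), against 0 and 9 with library totals. The CCT chaperonin, a ring that folds actin and tubulin, had 1 of 8 lower under TMM (median 0.03), against 1 lower and 7 higher with library totals. That gene was Tcp1, lower under both scalings at 76.8 ± 5.18 CPM in HepKO and 157 ± 2.59 CPM in WT (-1.03 ± 0.09, FDR 2.53e-04), while Cct5 (0.17 ± 0.09, FDR 0.171) and Cct7 (0.23 ± 0.12, FDR 0.154) were not called under TMM. Of 6 ubiquitin genes and E1 enzymes, Rps27a, which encodes ubiquitin fused to a ribosomal protein, rose (0.53 ± 0.13, FDR 0.0129), Uba1, the main E1 enzyme, was lower (-0.38 ± 0.09, FDR 0.0115) and Uba6 was not called (0.46 ± 0.17, FDR 0.0669). With library totals 5 of the 6 were higher and none lower. Without WT replicate 3 the calls of Cops5 (FDR 0.0847), Cops6 (FDR 0.0646), Eif3i (FDR 0.0626), Eif3j1 (FDR 0.0531), Eif3l (FDR 0.0663) and Uba1 (FDR 0.0523) were lost. Cops5 (FDR 0.0899), Cops6 (FDR 0.0663), Eif3l (FDR 0.0725) and Uba1 (FDR 0.0616) also lost theirs without WT replicate 2, and Cops5 without HepKO replicate 2 (FDR 0.0557).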

How the data were processed

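Raw read counts per gene for 6 liver libraries were deposited by the authors as whole-number counts. RNA was column-purified and its polyA fraction went into a stranded mRNA kit, per the labels' protocols. Tools named, per the submitters' processing notes, are STAR 2.7.11a, Subread 2.0.0 with featureCounts, bcl2fastq and edgeR 3.40.2, on the mm10 build, with no order or settings. Neither the annotation nor whether strand was used in counting is stated. Of 56350 Ensembl IDs, 55480 matched GENCODE M21 (GRCm38, the mm10 assembly) without version, 55180 also with it, and 870 did not match. Exon lengths and overlaps came from M21, promoters from RefSeq.

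Genes were filtered with filterByExpr, counts scaled by TMM, and HepKO compared with WT with edgeR 4.0.16 (2-sided quasi-likelihood test; R 4.3.3) over all 16051 genes kept, with no covariate. The procedure was tested on simulated data in which few genes were changed, in random directions. That simulation held no shift in composition between groups, so it does not bear on the choice of scaling. SE is the log2 fold change over the square root of F. Within groups, no pair of libraries agreed within sampling noise (chi-square over its degrees of freedom, 24.2 to 117).

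Members and lists were chosen with earlier results of these data known. Named were the 3 tested members of smallest p in each class, each member called higher, not called or in no class, the 3 genes of smallest p in each other list and the 5 immunoproteasome and activator genes; other names were chosen after their values were seen. Alternatives were DESeq2 1.42.0, limma-voom (limma 3.58.1), median-of-ratios (RLE) factors, library totals, 2 other filters, FDR under 0.01, the replicate block, leaving out each library and, added after seeing the data, totals without the 20 most abundant genes.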

Additional observations from a re-analysis of the deposited data

How the results depend on the processing

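Scaling decided the direction. With library totals, 3 members were lower and 11 higher (core 1 and 1, cap 1 and 5, assembly factors 1 and 2, all genes 937 and 7442), and the members' median turned to 0.12. Totals without the 20 most abundant genes, chosen after seeing the data, gave 7 lower and 9 higher (core 3 and 0, cap 3 and 5, assembly factors 1 and 2, all genes 1213 and 5885) and a median of -0.012. An FDR under 0.01 left 16 members lower (core 6; all genes 1693 lower and 1751 higher). DESeq2 and limma-voom called 2 assembly factors lower. Without WT replicate 3 or HepKO replicate 2, 7 core members were lower, against 13 in the main fit. The other counts kept within 1.5 times: members lower and higher were 28 and 1 with DESeq2 and with limma-voom, 26 and 1 with RLE factors, 25 and 1 without a filter and 26 and 1 with a minimum of 1 CPM in 3 libraries. The members' median stayed 0.34 to 0.49 below that of all genes in every setting. Settings that change only the scaling could hardly alter that distance.

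Leaving out 1 library gave 18 to 27 members lower and 1 higher, 7 to 13 core and 10 to 12 cap members lower, and a median of -0.42 to -0.33. All 28 called members kept their sign and 19 their call in all 6 fits. The replicate numbers did not pair the libraries (correlations of same-numbered deviations -0.146, -0.123 and 0.0402, and not every library correlated best with its own number); with the replicate block 23 members were lower and 1 higher.

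Among the members and the genes named by rule, signs that turned with library totals were those of Psma1 0.17, Psma2 0.20, Psma4 0.15, Psma5 0.15, Psma6 0.028, Psma7 0.12, Psmb2 0.026, Psmb4 0.11, Psmb5 0.34, Psmb6 0.016, Psmc1 0.17, Psmc2 0.12, Psmc3 0.17, Psmd13 0.066, Psmd14 0.045, Psmd4 0.38, Psmd7 0.49, Psme3 0.43, Psme4 0.11, Psmg1 0.44, Psmg2 0.27, Psmg3 0.0099, Ngly1 0.087, Uba1 0.13, Cops3 0.087, Cops6 0.16, Cops5 0.19, Eif3j1 0.12, Eif3l 0.074 and Eif3i 0.085. Without the 20 most abundant genes they were Psma1 0.042, Psma2 0.069, Psma4 0.025, Psma5 0.018, Psmb5 0.21, Psmc1 0.043, Psmc3 0.038, Psmd4 0.25, Psmd7 0.36, Psme3 0.30, Psmg1 0.31, Psmg2 0.14, Cops6 0.030 and Cops5 0.062. The scaling itself shifts every gene by a like amount, which is the source of these turns.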
